A study of Rattus norvegicus with 6 samples.

Results

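The beta and gamma subunits of voltage-gated calcium channels were followed in the injured rat dorsal root ganglion (DRG), the cluster of sensory nerve cell bodies beside the spinal cord. The family was taken as the beta genes Cacnb1 to Cacnb4 and the gamma genes Cacng2, Cacng3, Cacng4, Cacng5, Cacng7 and Cacng8, a list of 10 genes. A member was measured where the array's annotation gave at least 1 probe set (a group of probes that covers about 1 exon) its symbol and no other. This held for 9 of the 10 genes, out of 13378 genes with a value in the whole dataset, and Cacnb4 was not analysed here. The tested animals were male Wistar rats whose L5 spinal nerve had been cut (spinal nerve transection, SNT) and whose L5 DRG were taken 7 days later, and the controls were L5 DRG of naive male Wistar rats without surgery. Both groups consisted of 3 pools of 4 animals, each hybridised to 1 Affymetrix Rat Exon array after poly(A) enrichment. The naive animals had no sham operation, so the effects of surgery and of the nerve cut cannot be told apart.

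A high-voltage-activated calcium channel is built from a pore-forming alpha1 protein, an intracellular beta subunit and an extracellular alpha2delta subunit. The beta subunit binds the pore protein inside the cell, promotes its delivery to the surface membrane and shifts its gating, and in sensory neurones these channels admit the calcium that drives transmitter release. The gamma genes encode membrane proteins named after a muscle calcium channel subunit, but most of those studied here act mainly as transmembrane AMPA receptor regulatory proteins (TARPs), which carry AMPA-type glutamate receptors to synapses and slow their closing. Cacng2, Cacng3, Cacng4 and Cacng8 belong to the type I TARPs, and Cacng5 and Cacng7 to type II.

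The labelled tissue was checked against 10 measured markers of sensory neurones, whose mean log2 level lay between 10.78 and 11.34 in SNT and between 11.72 and 11.83 in naive pools. SNT pools resembled each other less (Pearson's r between 0.958 and 0.969 over all probe sets) than naive pools did (0.984 to 0.986), and SNT 1 stood closer to the naive arrays (0.955 to 0.960) than SNT 2 and SNT 3 (0.938 to 0.948). All values below are log2 levels, and a difference of 1 is a change of 2-fold. Levels of different genes come from different probes and were not compared. Ganglia are mixed tissue, and in bulk RNA a smaller number of cells of one type and less RNA per cell cannot be told apart.

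All 6 gamma genes and 1 of the 3 beta genes, Cacnb3, were lower in SNT than in naive DRG, and 0 of the 9 were higher, also at an unadjusted limit of 0.05. Cacng2 was 4.88-fold lower and Cacnb3 1.76-fold lower. Cacng5 was 2.89-fold lower with values under the background level raised to it, which was done because part of its SNT values lay there. Its fall was not ranked against that of Cacng2. The other 4 gamma genes were between 1.27-fold and 1.43-fold lower. The test was limma on 1 value per gene, with a Benjamini-Hochberg false discovery rate of 0.1. The count of 7 lower members was 4 without SNT 3, without naive 2 or without naive 3, and 4 with values under the background level raised to it, an alternative chosen after seeing the data. In that alternative Cacng3 and Cacng7, with no value under the level, kept log2 fold changes of -0.43 and -0.52. Their adjusted p rose to 0.194 and 0.203, as limma draws its variance estimate from all genes. In the main test 36.3% of all genes passed (23.3% lower and 12.9% higher). The median log2 fold change of the 9 members was -0.43, beside -0.02 over all genes. In 6 of the 9 every SNT value was below every naive value, against 28.9% of all genes (45.7% with either direction counted). The members' split depended on how the arrays were scaled. The array medians of the deposited values were 6.765, 6.884 and 6.880 in SNT 1, 2 and 3. In naive 1, 2 and 3 they were higher, at 6.979, 6.928 and 6.962. With each array centred on its median, which moved the median of all genes to 0.09, or with cyclic loess, 4 members were lower and 1, Cacnb1, was higher. Cacng3, Cacng7 and Cacng8 lost their calls in both. Of all changed genes, 35.7% were higher with the deposited values, 56.2% after centring and 46.1% after loess. The sign of each gamma gene and of Cacnb3 was negative in each of the 16 alternative analyses.

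**Figure D1:**
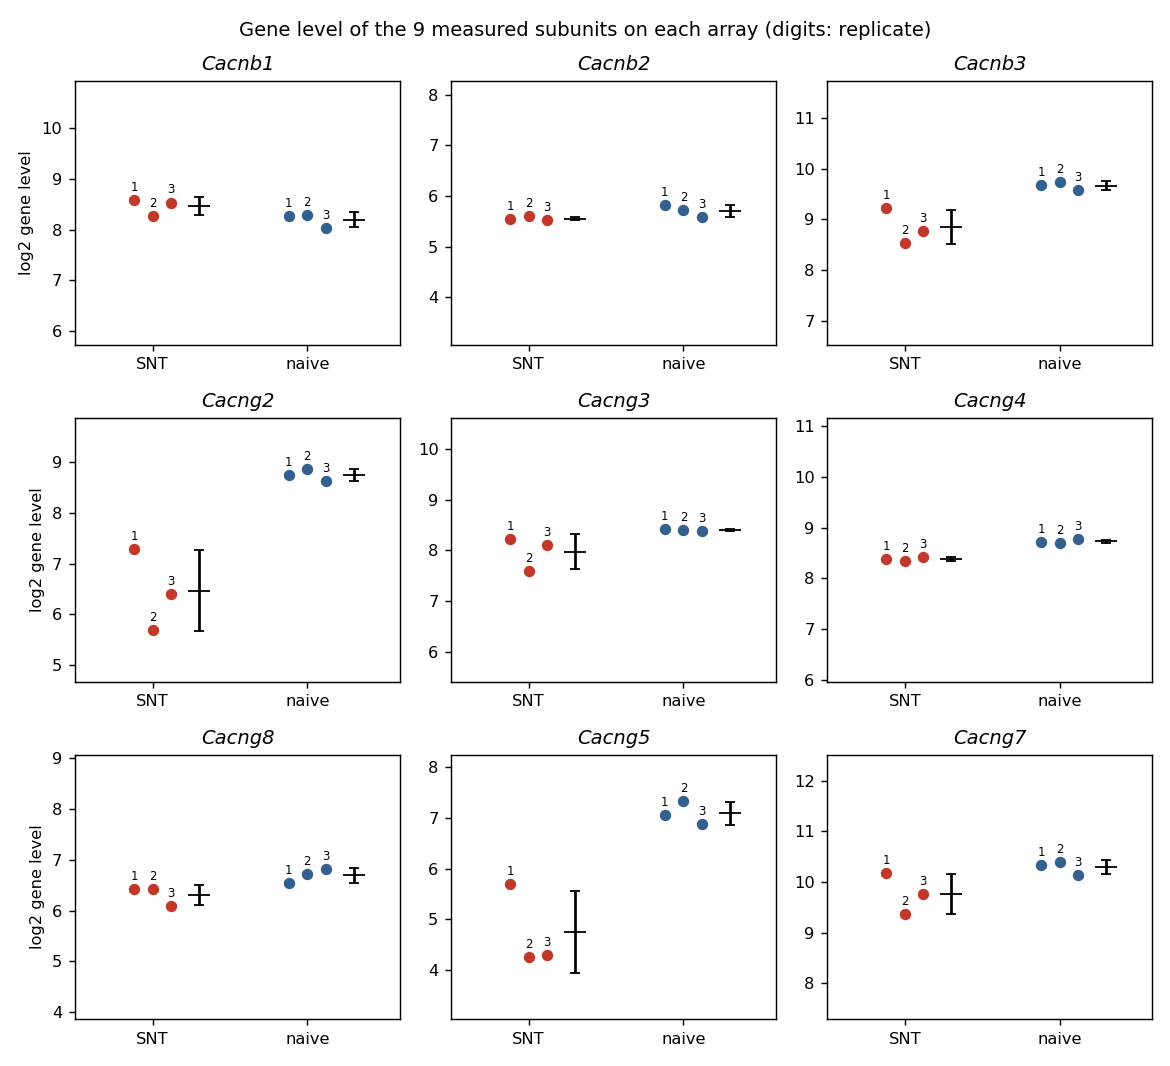
Log2 gene level (vertical axis, log2 units, the same span in every panel) of the 9 measured subunits on each array, with SNT pools (red) left of naive pools (blue) and digits for the replicate; horizontal bars give the mean and error bars the SD (n = 3 pools per group). Cacng2 and Cacng5 show the widest gap between groups, while the SNT and naive points of Cacnb1, Cacnb2 and Cacng7 overlap.

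Among the beta subunits, Cacnb3, a frequent partner of the N-type channel pore in neurones, stood at 9.22, 8.54 and 8.78 in SNT 1, 2 and 3, against 9.69, 9.74 and 9.57 in naive 1, 2 and 3. The groups did not overlap, and the pool nearest to the naive values was SNT 1. The difference was -0.82 ± 0.17 (log2 fold change ± SE, n = 3 pools per group, adjusted p = 0.0121). Cacnb3 passed in all 16 alternatives, with a log2 fold change between -1.01 and -0.66 when 1 array was left out.

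Cacnb1 encodes the beta subunit of the skeletal muscle channel, where it links the pore to calcium release, and is also made in neurones. It stood at 8.59, 8.27 and 8.53 in SNT pools and at 8.27, 8.29 and 8.02 in naive pools. The groups overlapped because SNT 2 lay among the naive values, and the difference of 0.27 ± 0.13 did not pass (adjusted p = 0.162). It passed after median centring (0.38, adjusted p = 0.0823) and after cyclic loess (0.36, adjusted p = 0.0979). The mean level of 6 skeletal muscle markers ranged from 6.56 to 7.47 in SNT and from 6.80 to 6.87 in naive pools, 0 of these markers passed the test, and their part in the level of Cacnb1 was not tested.

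Cacnb2, the main beta subunit of heart muscle, some of whose splice forms are held at the membrane by a lipid anchor, had gene levels of 5.55, 5.60 and 5.52 in SNT pools and 5.81, 5.72 and 5.59 in naive pools. SNT 2 was slightly above naive 3, so the groups overlapped, and the difference of -0.15 ± 0.09 did not pass (adjusted p = 0.283). The result followed the way its 22 probe sets were combined. With their plain mean the difference was -0.28 (adjusted p = 0.0902), and with the most variable probe set alone it was -1.41 (adjusted p = 0.0453). That probe set, 5895306, had 2 SNT values under the background level. These were the only 2 of 16 alternatives in which Cacnb2 passed. The difference was -0.12 over probe sets above background, -0.042 after centring and -0.036 with values raised to the background level.

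Among the type I TARPs, Cacng2 encodes stargazin, the protein missing in the stargazer mouse and the first TARP described. Its levels were 7.29, 5.70 and 6.39 in SNT pools, against 8.76, 8.87 and 8.62 in naive pools. Every SNT pool was more than a full log2 unit below every naive pool, and the spread among SNT pools was wide (SD 0.80, against 0.13 in naive). The difference was -2.29 ± 0.36 (adjusted p = 0.00473), which placed Cacng2 among the 84 genes, 0.628% of all, that passed with a fall of more than 4-fold. Taken singly, the SNT pools differed from the naive mean by -1.46, -3.05 and -2.36.

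Cacng4, a TARP that is prominent in the developing brain and in glia, had the tightest replicates of the SNT pools, with 8.39, 8.35 and 8.42, against 8.71, 8.70 and 8.77 in naive pools. The gap between the groups was small beside that of Cacng2 but wide relative to their spread, and the groups did not overlap. The difference was -0.34 ± 0.08 (adjusted p = 0.0198), and 15 of 16 alternatives kept the call. The exception was the use of the most variable probe set alone (-0.60, adjusted p = 0.255).

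Cacng3, a TARP of the forebrain, stood at 8.23, 7.59 and 8.11 in SNT pools and at 8.43, 8.41 and 8.38 in naive pools. The groups did not overlap, and SNT 2 was far below the other SNT pools. The difference of -0.43 ± 0.17 passed narrowly (adjusted p = 0.0976). Only the fit without SNT 1 kept this call among those with 1 array removed (adjusted p between 0.129 and 0.293 in the others), and without SNT 2 the difference was -0.21.

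Cacng8, the main TARP of the hippocampus, stood at 6.42, 6.43 and 6.08 in SNT pools and at 6.53, 6.73 and 6.82 in naive pools. The lowest naive value was just above the highest SNT value. The difference was -0.38 ± 0.13 (adjusted p = 0.0699). It no longer passed without SNT 3 (-0.27, adjusted p = 0.149), without naive 2 (-0.29, adjusted p = 0.188) or without naive 3 (-0.28, adjusted p = 0.175). It also did not pass over probe sets above background (-0.37, adjusted p = 0.125), after centring (-0.27, adjusted p = 0.197) or after loess (-0.33, adjusted p = 0.107), and in all it passed in 7 of 16 alternatives.

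Of the type II TARPs, Cacng5 encodes a protein that modulates the gating of AMPA receptors. It had levels of 5.69, 4.26 and 4.30 in SNT pools, against 7.06, 7.34 and 6.88 in naive pools. The groups were far apart, and SNT 2 and SNT 3 fell under 5.11, the level taken as background because the file holds no detection calls. The difference of the deposited values was -2.34 ± 0.37 (adjusted p = 0.00503), and its size rests on levels not above background. With every probe set value under 5.11 raised to that level it was -1.53 ± 0.14 (adjusted p = 0.00909). This is a gene-level fall of 2.89-fold that depends on the level chosen, and it is no bound for every probe set. Probe sets 5707157 and 6502955, above 5.11 on every array, were 1.38-fold and 1.90-fold lower, and the first of these did not pass. Probe set 6609323, at 6.46, 5.22 and 5.10 in SNT pools, had 1 value under 5.11. With that value raised to the level it was 4.98-fold lower (adjusted p = 0.0599). Raising values to 1 level also removed spread among the SNT pools, so the SE of 0.14 is not comparable with the 0.37 of the deposited values. The call held in all 16 alternatives, of which that fit is 1.

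Cacng7, the other type II TARP, which is prominent in the cerebellum, stood at 10.17, 9.38 and 9.76 in SNT pools and at 10.33, 10.40 and 10.14 in naive pools. SNT 1 lay above naive 3, so the groups overlapped although the difference passed (-0.52 ± 0.20, adjusted p = 0.0930). Removing any of the 5 arrays but SNT 1 lost the call (adjusted p between 0.162 and 0.315), and without SNT 2 the difference was -0.32.

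Markers of the cell types of the ganglion also differed between the groups. Of 10 measured markers of sensory neurones, 7 were lower and 0 higher in SNT, and the median of the 10 log2 fold changes was -0.66. Their median difference from the naive mean was -0.44 in SNT 1, -0.90 in SNT 2 and -0.64 in SNT 3. The median difference of the 9 members was -0.27 in SNT 1, -0.82 in SNT 2 and -0.53 in SNT 3, so that SNT 1 was nearest to naive and SNT 2 farthest from it for both lists. All 11 measured macrophage markers were higher in SNT (median 2.07), with a mean level from 8.79 to 9.87 in SNT and from 7.10 to 7.55 in naive pools. Their median difference was 1.41 in SNT 1, 2.44 in SNT 2 and 2.35 in SNT 3. The order of the SNT pools was therefore not particular to neurone markers and members. Satellite glia markers did not have it (-0.05, 0.17 and -0.001). Among satellite glia markers 2 were higher and 2 lower of 6, and among myelinating Schwann cell markers 2 were higher and 0 lower of 7. The part of these markers in the members' differences was not tested.

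RefSeq promoter windows (assembly GRCr8, 250 bases before to 50 after a gene's start) were found for 6 of the 10 members. The windows of Cacng2, Cacng5 and Cacnb3, the members with the lowest log2 fold changes, are shown together with that of Cacng3, which fell by less. Each is written 5′ to 3′ on the gene's own strand, and capitals mark matches, on either strand, to the 6 motifs named in the next paragraph. The windows lie at chr7:111577708-111578007 on the minus strand (Cacng2), chr10:93336618-93336917 on the minus strand (Cacng5), chr7:131666301-131666600 on the plus strand (Cacnb3) and chr1:186632312-186632611 on the plus strand (Cacng3).
Cacng2: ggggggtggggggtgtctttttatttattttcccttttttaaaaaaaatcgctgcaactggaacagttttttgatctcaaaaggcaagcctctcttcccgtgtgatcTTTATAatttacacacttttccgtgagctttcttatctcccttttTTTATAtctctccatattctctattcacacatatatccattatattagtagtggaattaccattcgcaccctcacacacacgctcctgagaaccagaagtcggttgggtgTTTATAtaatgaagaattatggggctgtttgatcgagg
Cacng5: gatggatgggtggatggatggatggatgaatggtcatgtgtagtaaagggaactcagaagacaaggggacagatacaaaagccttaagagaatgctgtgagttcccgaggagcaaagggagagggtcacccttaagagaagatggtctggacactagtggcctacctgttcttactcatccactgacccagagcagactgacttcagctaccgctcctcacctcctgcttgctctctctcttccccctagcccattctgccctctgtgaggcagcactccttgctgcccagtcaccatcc
Cacnb3: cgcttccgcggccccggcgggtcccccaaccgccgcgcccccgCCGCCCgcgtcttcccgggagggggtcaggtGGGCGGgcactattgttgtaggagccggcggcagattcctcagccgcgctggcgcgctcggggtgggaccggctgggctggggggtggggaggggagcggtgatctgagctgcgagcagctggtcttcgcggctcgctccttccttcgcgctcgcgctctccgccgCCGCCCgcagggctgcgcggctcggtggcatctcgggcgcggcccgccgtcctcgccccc
Cacng3: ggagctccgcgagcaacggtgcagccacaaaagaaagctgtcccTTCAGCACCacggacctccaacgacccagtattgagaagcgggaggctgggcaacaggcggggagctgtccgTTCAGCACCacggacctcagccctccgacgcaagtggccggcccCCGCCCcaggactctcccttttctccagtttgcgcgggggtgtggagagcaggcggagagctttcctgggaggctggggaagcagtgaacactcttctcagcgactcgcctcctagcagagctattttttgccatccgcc

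The windows differed in base composition and motifs. The Cacng2 window was 39% G and C and held 3 matches to the TATA motif, TATAAA, all read from the opposite strand, whereas 14.2% of all 33469 windows held at least 1. The Cacng5 window, at 53% G and C, held 0 matches to any of the 6 motifs. The Cacnb3 window was 77.7% G and C with 3 GC boxes (GGGCGG), a motif found in 33.1% of all windows. RE1 is the element bound by the neuronal repressor REST, and it was searched as a left and a right part. The Cacng3 window held 1 GC box and 2 copies of the left part, TTCAGCACC, which stood in 0.356% of all windows. It held 0 exact copies of the right part, GGACAGCGC, which stood in 0.415%, and inexact matches were not sought. The AP-1 motif, TGANTCA, was in 7.33% of all windows and in 0 of the 7 windows of members. The CRE motif, TGACGTCA, was in 1.83% of all windows and also in 0 of these 7. No matches to different motifs overlapped in the 4 windows shown. The 7 windows included 2 of Cacnb2, whose starts lie 123.6 kb apart. A match is a run of letters in the window and not a measured binding site.

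The question whether all exons of a gene changed alike was put to the single probe sets. The 9 genes had 83 probe sets, of which 74 had a mean above the background level. Of the 83, 30 were lower in SNT and 0 higher at the same false discovery rate in limma (0 higher at an unadjusted limit of 0.05 as well), beside 10.7% lower and 5.16% higher over all 226599 probe sets. In 41 of them every SNT value was below every naive value (19.8% of all probe sets), and in 3 every SNT value was above (12.7%). The median log2 fold change of the 83 was -0.45, against -0.03 over all probe sets. The count of 30 fell to 14, 15 and 16 when naive 1, naive 2 or naive 3 was left out. In these fits the share of all genes that changed was also lower, at 20.4%, 21.6% and 24.4%, against 36.3% with all arrays. These are shares of genes. The share of all probe sets, 15.9% with all arrays, is not given for these fits.

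**Figure D2:**
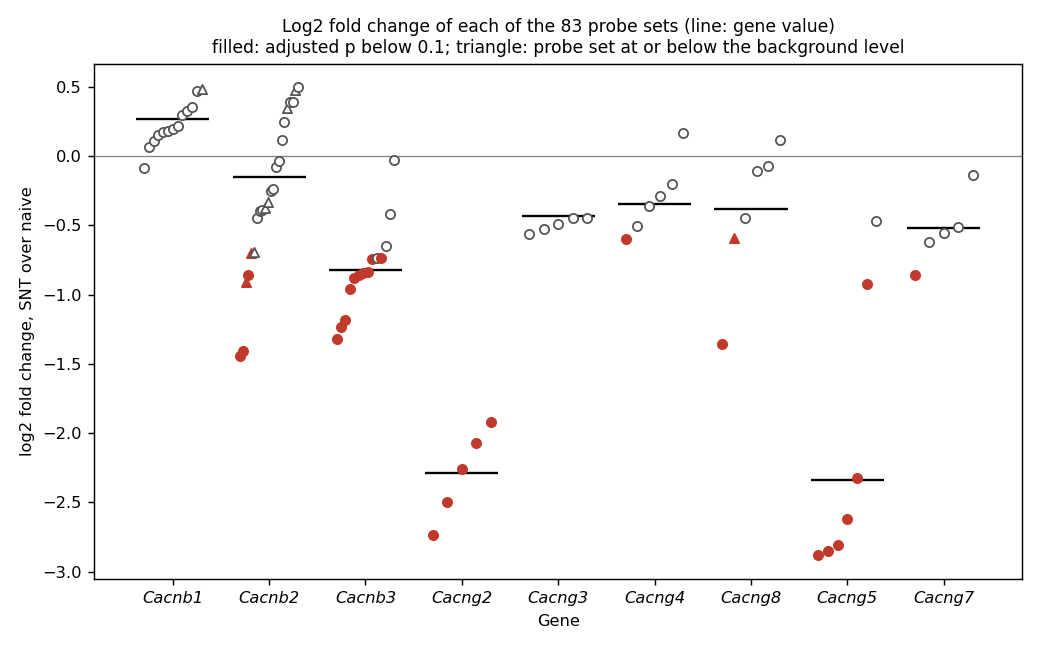
Log2 fold change of SNT over naive (vertical axis, log2 units) of each of the 83 probe sets, grouped by gene along the horizontal axis and ordered by value within a gene; filled points passed the test, triangles mark probe sets at or below the background level, and black lines give the gene's own value. All 5 points of Cacng2 lie near its line at -2.29, while the points of Cacnb2 run from -1.44 to 0.50 and 2 points of Cacng5 lie far above its line at -2.34. All are values as deposited, and part of the SNT values of Cacng5 and Cacnb2 are under the background level. So are the SNT 3 value of Cacng2 probe set 6723107 and the SNT values of Cacng8 probe set 6161797 and Cacnb1 probe set 6250899.

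The calls were unevenly spread over the genes. All 5 probe sets of Cacng2 were lower, from -2.74 ± 0.48 (probe set 6723107, adjusted p = 0.0168) to -1.92 ± 0.26 (probe set 6353107, adjusted p = 0.00823). The SNT 3 value of probe set 6723107 was 4.96, under the background level, and with it raised to that level the difference was -2.68. Of the 14 probe sets of Cacnb3, 10 were lower and all 14 had a negative value, the largest at -1.32 ± 0.26 (probe set 6478251, adjusted p = 0.0217) and the smallest at -0.03 ± 0.17 (probe set 6668964, adjusted p = 0.942). The sign of that smallest value was positive after centring, after loess and without SNT 2.

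In the other genes with small gene-level differences, few single probe sets passed. Cacng3 had 0 of 5 lower, with values between -0.56 (probe set 5804528) and -0.44 (probe set 5645230), although all 5 were negative. Cacng4 had 1 of 6 lower (probe set 5754219, -0.60 ± 0.17, adjusted p = 0.0696, and up to 0.248 with SNT 2 or any naive array left out), and its highest probe set, 6144668, stood at 0.16. Cacng7 had 1 of 5 lower (probe set 6472797, -0.86 ± 0.19, adjusted p = 0.0334, and 0.110 to 0.130 with any naive array left out), and its highest, 5759142, was at -0.14. Cacnb1 had 0 of 13 called, 12 of them positive, with 0.47 at the top (probe set 6403104), 0.35 at the most variable (6166714) and -0.09 at the bottom (6290102).

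Whether the probe sets of a gene changed by different amounts was tested with limma's diffSplice F test, over probe sets whose mean over all 6 arrays was above background. A probe set high in naive pools alone could enter this way, as the lowest probe sets of Cacnb2 and Cacng5 did. It passed for Cacnb2 (adjusted p = 4.67e-05), Cacng5 (adjusted p = 0.0177) and Cacng8 (adjusted p = 0.0248), which is 3 of the 9 genes, beside 19.5% of the 10741 genes tested. It did not pass for Cacng4 (0.123), Cacnb3 (0.20), Cacng7 (0.626), Cacng2 (0.908), Cacnb1 (0.996) or Cacng3 (1.00, all adjusted p). The count was 1 when any naive array was left out. Cacnb3 passed without SNT 1 (adjusted p = 0.00362) or SNT 2 (0.0454), and Cacng4 without SNT 2 (0.0986) or SNT 3 (0.0916). On simulated data a large part of this test's calls were genes without a planted difference, far above its nominal rate, so a call on its own is no firm evidence of unequal change. In a pair of alternatives chosen after seeing the data the same 3 genes passed. With values under background raised to it the adjusted p was 5.05e-05 for Cacnb2, 0.00826 for Cacng5 and 0.0211 for Cacng8, beside 19.3% of genes passing. Over probe sets above background in both groups it was 0.0874 for Cacnb2, 0.0131 for Cacng5 (3 probe sets left) and 0.0267 for Cacng8, beside 16.9% of genes.

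In Cacnb2 a few probe sets were lower in SNT and the others did not pass. Probe set 6081567 had 4.99, 4.28 and 4.53 in SNT pools, against 6.20, 5.88 and 6.05 in naive pools, and probe set 5895306 had 4.10, 5.06 and 5.31 in SNT pools, against 6.43, 6.23 and 6.04. In both, the groups did not overlap, and the background level of 5.11 was above all 3 SNT values of the first and 2 of the 3 of the second. Their differences as deposited were -1.44 ± 0.22 (adjusted p = 0.0117) and -1.41 ± 0.32 (adjusted p = 0.0340). With values raised to the background level they were 1.91-fold and 2.08-fold lower, sizes that depend on the level chosen. At the other end, probe set 5921899 had 5.58, 5.54 and 4.98 in SNT pools, against 4.60, 5.19 and 4.81 in naive pools, with overlap and a difference of 0.50 ± 0.24 that did not pass (adjusted p = 0.247). In all, 5 of 22 probe sets of Cacnb2 were lower, 2 of them at or below the background level. The call of unequal probe sets held whichever array was left out (adjusted p at most 0.0245) but not over probe sets above the 50th percentile of level (adjusted p = 0.218). Without naive 1 or naive 2 the call of probe set 5895306 was lost (adjusted p = 0.127 and 0.117).

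In Cacng5 the split ran the other way, with most probe sets far down and a pair of them less so, in deposited values and with values raised to the background level. Probe set 5658596 stood at 3.83, 3.35 and 4.30 in SNT pools, all under the background level, against 6.80, 6.89 and 6.45 in naive pools. Its deposited difference was -2.88 ± 0.27 (adjusted p = 0.00376), and with values raised to the background level it was 3.03-fold lower. The most variable one, 5798739, was at 5.55, 3.02 and 4.03 in SNT pools, against 6.93, 7.28 and 6.79 in naive pools (-2.80 ± 0.56, adjusted p = 0.0238). Of its SNT values 2 were under the background level, and with these raised to it the fall was 3.35-fold. Both raised folds depend on the level chosen. By contrast, probe set 5707157 was at 7.95, 7.52 and 7.18 in SNT pools, against 7.84, 8.35 and 7.86 in naive pools. Its groups overlapped through SNT 1, and its difference of -0.47 ± 0.25 did not pass (adjusted p = 0.294). Probe set 6502955 was between these, at -0.92 ± 0.22 (adjusted p = 0.0410). The call of unequal probe sets for Cacng5 was lost without SNT 2 (adjusted p = 0.102), naive 1 (0.280), naive 2 (0.199) or naive 3 (0.164).

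In Cacng8 a single probe set stood apart among those above the background level. Probe set 6303251 had 5.89, 5.30 and 6.17 in SNT pools, against 7.06, 7.06 and 7.31 in naive pools, without overlap. Its difference was -1.36 ± 0.25 (adjusted p = 0.0179), whereas the highest probe set, 5970097, was at 0.11 ± 0.23 (adjusted p = 0.807), a value that was -0.03 without SNT 1. Probe set 6161797 was also lower (-0.59 ± 0.18, adjusted p = 0.0828), but its mean was at or below the background level, so it was not in the test of unequal probe sets. The call of unequal probe sets for Cacng8 was lost without SNT 2 (adjusted p = 0.121), naive 1 (0.253), naive 2 (0.136) or naive 3 (0.299). Positions of probe sets along the genes were not used here, so the exons behind these probe sets are not named.

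**Figure D3:**
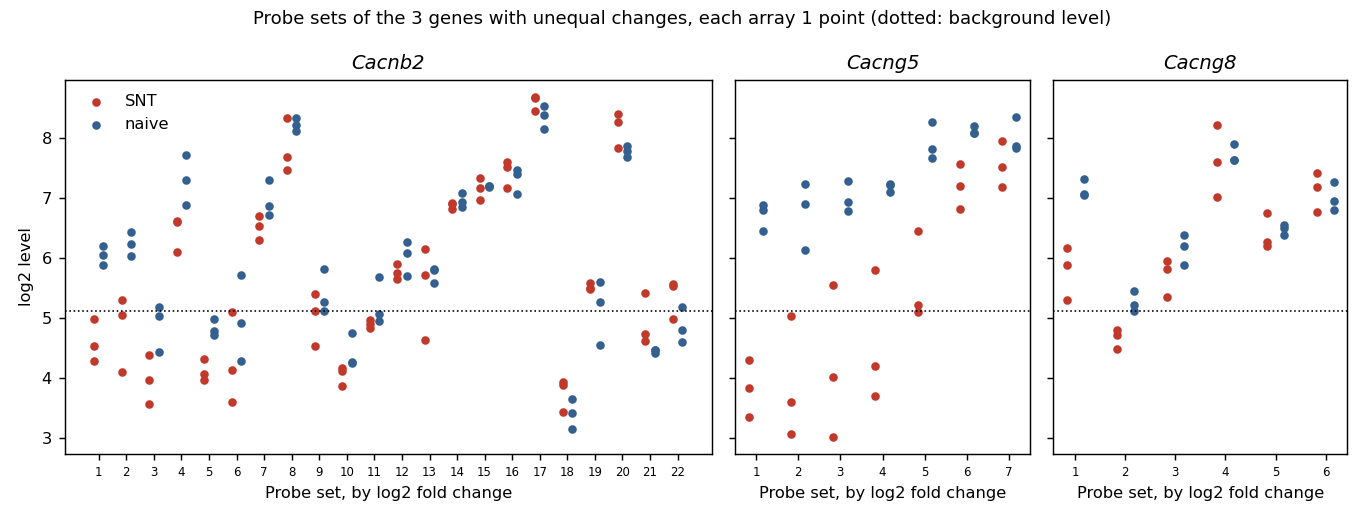
Log2 level (vertical axis, log2 units) of each probe set of Cacnb2, Cacng5 and Cacng8 on each array, SNT (red) left of naive (blue), numbered along the horizontal axis in the order of their log2 fold change, lowest first; the dotted line is the background level of 5.11. In Cacng5 the first 5 probe sets show SNT points well below naive points while the seventh overlaps, and in Cacng8 the first stands apart from the rest.

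Partners of the family in the calcium channel and in the AMPA receptor were taken from a list of 42 genes, of which 36 were measured. In SNT 19 of these 36 were lower and 4 higher, beside 23.3% lower and 12.9% higher over all genes. The median of the partners' log2 fold changes was -0.30. The count of 23 changed genes was 15 without naive 2, where 21.6% of all genes changed, against 36.3% with all arrays.

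Among the high-voltage-activated pores, which the beta subunits bind, 4 of 6 were lower and 0 higher. These were the L-type pores Cacna1d (-0.54 ± 0.09, adjusted p = 0.00653) and Cacna1c (-0.44 ± 0.10, adjusted p = 0.0143), the P/Q-type pore Cacna1a (-0.45 ± 0.13, adjusted p = 0.0378) and the R-type pore Cacna1e (-0.29 ± 0.10, adjusted p = 0.0712). The N-type pore Cacna1b stood at -0.26 ± 0.12 and did not pass (adjusted p = 0.148). Among the low-voltage-activated T-type pores, which work without a beta subunit, Cacna1h (-0.69 ± 0.11, adjusted p = 0.00541) and Cacna1i (-0.32 ± 0.10, adjusted p = 0.0541) were lower, and 1 of 3 did not pass. The alpha2delta subunits were split. Cacna2d1, a target of gabapentin, was at 10.16, 10.34 and 10.61 in SNT pools, against 8.90, 8.93 and 8.71 in naive pools (1.53 ± 0.14, adjusted p = 0.00141). Cacna2d3 (-1.79 ± 0.21, adjusted p = 0.00243) and Cacna2d2 (-1.29 ± 0.18, adjusted p = 0.00351) were lower. The calls of Cacna1e and Cacna1i were lost in each of the 5 fits that removed an array other than SNT 1 (adjusted p up to 0.439 and 0.202). Cacna1a did not pass without SNT 2, SNT 3, naive 1 or naive 2 (up to 0.147), nor Cacna1c without naive 1 or naive 2 (up to 0.123).

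Of the 3 remaining gamma genes, which are not TARPs, 1 was higher and 0 lower. Tmem37, which encodes a gamma-like protein, was higher (0.66 ± 0.16, adjusted p = 0.0185, and 0.101 without naive 2). The muscle gene Cacng1 stood at -0.16 ± 0.14 (adjusted p = 0.438) and Cacng6 at 0.31 ± 0.14 (adjusted p = 0.150).

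Proteins that act on calcium channels through or beside the beta subunit moved in both directions, 6 lower and 1 higher of 10. Stac2, an adaptor that slows inactivation of L-type channels, stood at 8.13, 8.21 and 8.60 in SNT pools, against 6.01, 5.98 and 6.27 in naive pools, a difference of 2.23 ± 0.15 (adjusted p = 0.000829). Its relative Stac was lower (-1.24 ± 0.23, adjusted p = 0.00860). Rem2, a small GTPase that binds beta subunits and reduces calcium current, was lower (-1.47 ± 0.27, adjusted p = 0.00783), as was Rims1, a scaffold of the release site that binds beta subunits (-1.33 ± 0.17, adjusted p = 0.00291).

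The AMPA receptor pores, which the TARPs escort, were lower in 3 of 3 measured genes. Gria2, whose product makes the receptor nearly impermeable to calcium, was at 7.00, 5.56 and 6.17 in SNT pools, against 8.58, 8.64 and 8.50 in naive pools. As in Cacng2, SNT 2 was lowest and SNT 1 highest of the SNT pools. This order is not particular to these genes, since the neurone markers Nefl, Nefh and Isl1 and the subunit Cacna2d3 also had it. Gria3 and Gria4 did not. The difference was -2.33 ± 0.32 (adjusted p = 0.00352), and Gria4 (-1.05 ± 0.14, adjusted p = 0.00296) and Gria3 (-0.71 ± 0.09, adjusted p = 0.00275) were also lower. Of 7 measured auxiliary and scaffold genes, Dlg2, a synaptic scaffold (-1.06 ± 0.13, adjusted p = 0.00256) and Dlg4, the scaffold that anchors TARPs (-0.53 ± 0.10, adjusted p = 0.0101), were lower. The related scaffold Dlg3 was higher (0.30 ± 0.10, adjusted p = 0.0619), a call kept by 1 of the 6 fits with an array removed, the fit without SNT 1 (adjusted p up to 0.224 in the others). The other 4 did not pass.

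**Figure D4:**
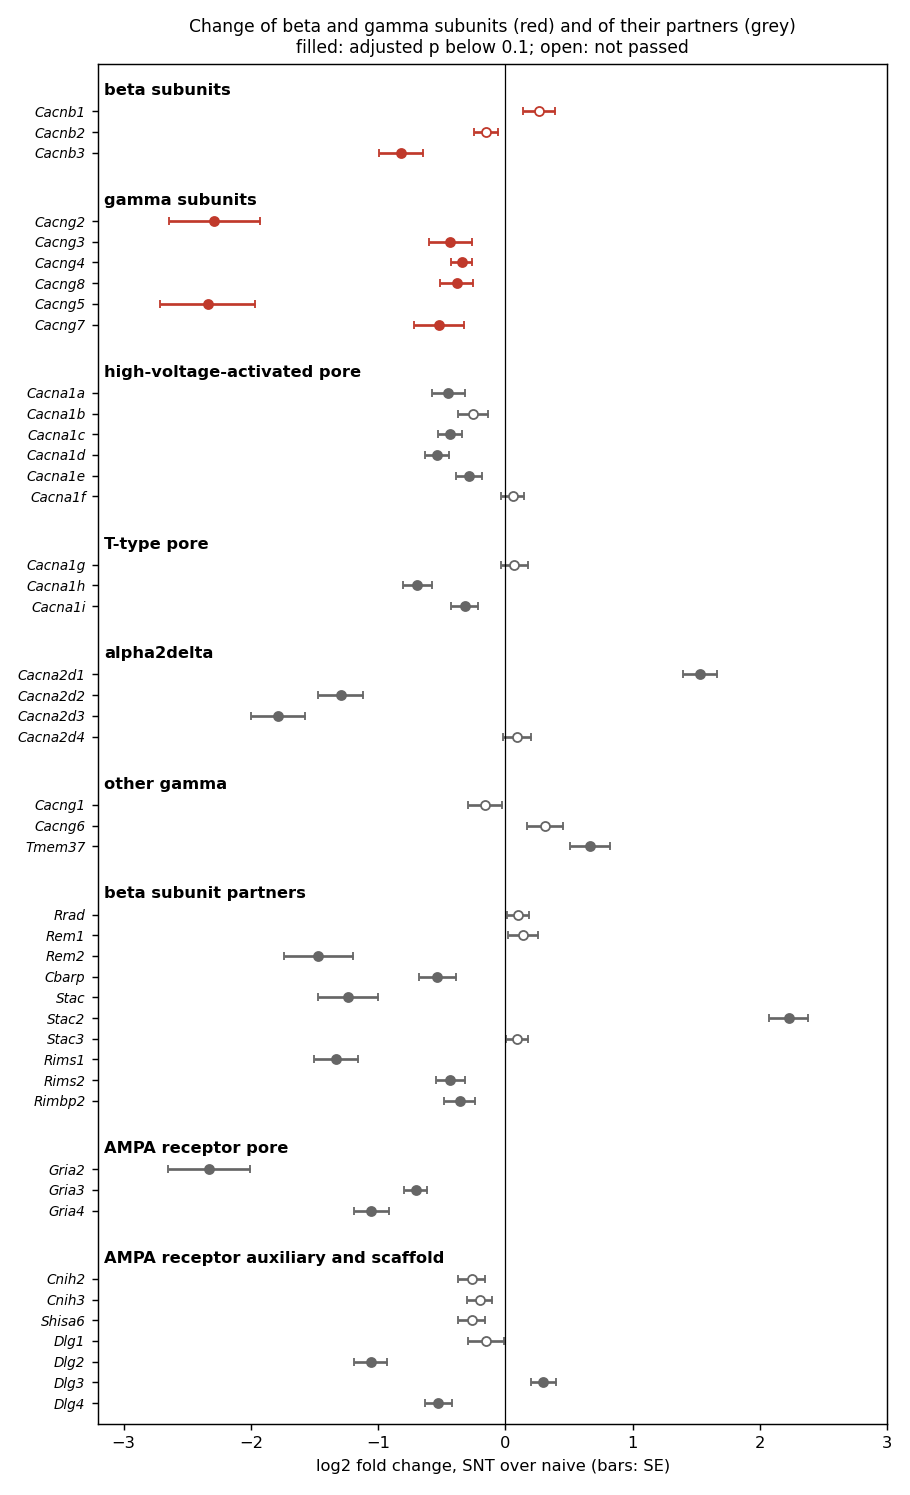
Log2 fold change of SNT over naive (horizontal axis, log2 units, bars give the SE, n = 3 pools per group) for the 9 measured beta and gamma subunits (red) and 36 partner genes (grey), grouped by role; filled points passed the test and open points did not. The 6 gamma points in red and the AMPA receptor pores lie left of 0, and Stac2 at 2.23 and Cacna2d1 at 1.53 lie farthest to the right.

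The genes whose profile over the 6 arrays was most like that of a member were sought for Cacnb3 and Cacng5, the beta and the gamma gene with the largest difference in deposited values. The 6 arrays form 2 groups, so any gene that differs between them has a high correlation, and r is given as a description. For Cacnb3 the nearest profiles were those of Sv2c (Pearson's r = 0.9995), Adam11 (0.9993), Ndrg4 (0.9992), Cntn2 (0.9989) and Kcnk1 (0.9989), with log2 fold changes of -0.85, -1.39, -0.82, -1.33 and -1.04. For Cacng5 they were C20h6orf136 (r = 0.9998), Smad9 (0.9998), Jph3 (0.999), Ankrd29 (0.9989) and Aldoa (0.9989), with log2 fold changes of -0.97, -2.38, -1.64, -1.09 and -0.32.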

How the data were processed

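RNA of L5 DRG pools (3 SNT, 3 naive, 4 animals each) was enriched for poly(A), labelled with biotin and hybridised to exon arrays. The deposited values were log2 levels of 226599 probe sets that the authors made in R with oligo by RMA, that is background correction, quantile normalisation and median polish. No version of either tool was found in the sources used. Quantile normalisation makes each change relative to the array as a whole, but the array medians of the deposited values were not equal. Values ran from 1.84 to 14.35, 0 were missing and 0 columns lay outside the mapped samples. In the annotation 164162 probe sets had 1 gene symbol, 2388 several and 60049 none, and 25622 symbols were updated through the GRCr8 RefSeq table. A gene's probe sets were combined per array by median polish (at most 20 iterations), with a median of 10 per gene over 13378 genes, 600 of which had 1.

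SNT was compared with naive in limma 3.58.1 (R 4.3.3, lmFit and eBayes, two-sided, Benjamini-Hochberg over all genes or probe sets, false discovery rate 0.1), and unequal probe sets with diffSplice over genes that had at least 3 probe sets exceeding a background of 5.11, set at percentile 25 of the mean levels of all probe sets. Errors are moderated limma SE. The precision is limited by the number of arrays, 3 per group. Scripts were tested on simulated data. Replicates were labelled 1 to 3 in both groups, but their deviations did not pair (r of -0.07, -0.22 and 0.06), so no block was used. Members and gene lists were chosen with earlier results of these data known. Named were all members, the most variable, lowest and highest probe set of each, at most 4 changed genes per partner list and the 5 genes most like the beta and the gamma gene with the largest change. Other probe sets and the partner genes Cacna1b, Cacng1 and Cacng6 were named after their values were seen. Alternatives covered the false discovery rate, variance model, array weights, scaling, probe set summary and filter, the replicate number as a block and the removal of each array. Raising values under the background to it, and testing unequal probe sets above it in both groups, were added after seeing the data. No control probe sets, detection calls or scan dates were used.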

Additional observations from a re-analysis of the deposited data

How the results depend on the processing

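Over the 16 alternatives the 9 member genes kept their side of the threshold in 109 fits, lost a call in 31 and gained one in 4, and Cacnb3, Cacng2 and Cacng5 passed in all 16. At a false discovery rate of 0.05 the members changed were 4 instead of 7, since Cacng3, Cacng7 and Cacng8 were lost by construction of the stricter rate. With values under background raised to it, chosen after seeing the data, they were also 4, and 24 of their probe sets passed. Cacng3 and Cacng7 lost their calls there with unchanged log2 fold changes. Leaving out 1 array gave 4 to 7 changed members, 14 to 39 changed probe sets of members instead of 30, 1 to 4 members with unequal probe sets instead of 3, and 15 to 25 changed partner genes instead of 23. With 1 array left out the share of all genes that changed was between 20.4% and 43.8%, against 36.3% with all arrays. Over probe sets above the 50th percentile 1 member, Cacng4, had unequal probe sets (adjusted p = 0.0854), while Cacng5 and Cacng8 had fewer than 3 such probe sets and could not be tested.

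Signs turned in 4 of the 21 probe sets followed singly, none of which had passed. Over all 83, centring turned 6 signs and cyclic loess 2, and 0 of these probe sets had passed. Cacnb1 6290102 was 0.025 after centring and ranged from -0.245 to 0.063 with 1 array left out. Cacnb3 6668964 was 0.086 after centring, 0.056 after cyclic loess and -0.12 to 0.043 with 1 array left out. With 1 array left out, Cacng8 5970097 ranged from -0.032 to 0.288 and Cacng7 5759142 from -0.33 to 0.102. The cause was not tested.

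With the replicate number as a block, 5 members, 24 of their probe sets, 3 members with unequal probe sets and 19 partner genes changed, and over all genes 4072 instead of 4851. The calls of Cacng3 (adjusted p = 0.105) and Cacng8 (adjusted p = 0.133) were lost under the block. Same-numbered pools did not deviate together, so the pairing was not taken as given. Depth does not apply to arrays, and 9 of the 83 probe sets of members were at or below the background level.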
